A study of Mus musculus with 2 samples.

Results

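Inflammasomes are protein platforms that assemble in macrophages after infection or damage and activate inflammatory caspases. The 10 genes described here are the sensors Nlrp3, Nlrc4, Aim2 and Mefv, the adaptor Pycard, the caspases Casp1 and Casp4, the channel genes Panx1 and P2rx7, and the cytokine Il18. They were followed on the 2 arrays of a study of mouse peritoneal macrophages, and every probe set annotated to exactly 1 of these symbols was taken. This gave 13 probe sets for 9 of the 10 genes, out of 45037 non-control probe sets and 18093 genes; Nlrc4, the sensor that works with NAIP proteins, was not analysed here.

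Macrophages of C57BL/6J mice were drawn into the peritoneal cavity with thioglycolate, an irritant, and harvested after 3 days. The first group received LPS+CPN, that is lipopolysaccharide (LPS), a ligand of the receptor TLR4, with a compound that the labels call only CPN. The second group received LPS+CPN+GGOH, so that LPS and CPN were shared and GGOH was the difference. GGOH is geranylgeraniol, an alcohol that cells can turn into the lipid used for protein geranylgeranylation. There was 1 array per group and no control without LPS or CPN, and the labels state no dose, treatment time, age or pooling of the mice. The comparison asked which genes GGOH raises or lowers in cells that have LPS and CPN. Since there were no replicates, every difference describes these 2 arrays and no value has a test, a standard error or a p-value.

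In the canonical route, a sensor such as NLRP3, AIM2 or pyrin (the product of Mefv) recruits the adaptor ASC (Pycard), which in turn recruits caspase-1. Caspase-1 cleaves the precursors of IL-1 beta and IL-18 and the pore-forming protein gasdermin D. In the non-canonical route, mouse caspase-11, encoded by Casp4, binds cytosolic LPS itself. Extracellular ATP opens the P2X7 receptor (P2rx7), a strong trigger of NLRP3, and pannexin-1 (Panx1) forms membrane channels that release ATP. Pyrin is held inactive through phosphorylation by RhoA-dependent kinases, and RhoA needs a geranylgeranyl anchor to work, which links the pyrin inflammasome to the isoprenoid pathway.

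The members spread to both sides of 0 on the LPS+CPN+GGOH array. Panx1 was 2.22-fold lower, Mefv 1.68-fold, Nlrp3 1.61-fold, Casp4 1.51-fold and Casp1 1.25-fold lower. In contrast, P2rx7 was 1.54-fold higher, Aim2 1.41-fold, Pycard 1.24-fold and Il18 1.08-fold higher. Of the 9 members, 5 were lower, and over all genes measured 51.4% were lower, so the split is close to that of the arrays as a whole. The ratios of Il18, Pycard and Casp1 were also smaller than the spread between probe sets described below. In bulk RNA, fewer cells of a type and less RNA per cell cannot be told apart.

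The sequences upstream of 5 members are shown because these genes span the lowest ratio (Panx1), the sensors that were lower (Mefv and Nlrp3), the member with the most matches to the motifs searched (Casp4) and the highest ratio (P2rx7). Each is the 250 bases before an annotated transcription start, read 5′ to 3′ on the gene's strand, from RefSeq on GRCm38.p6. They lie at chr9:15045479-15045728 on the minus strand (Panx1), chr16:3718125-3718374 on the minus strand (Mefv), chr11:59541319-59541568 on the plus strand (Nlrp3), chr9:5308599-5308848 on the plus strand (Casp4) and chr5:122643677-122643926 on the plus strand (P2rx7). Capitals mark matches to any of 4 motifs, searched on both strands: the NF-kB consensus, the interferon-response element core (GAAA, any 2 bases and GAAA again), the AP-1 site TGANTCA and the PU.1 core GAGGAAGT.
Panx1: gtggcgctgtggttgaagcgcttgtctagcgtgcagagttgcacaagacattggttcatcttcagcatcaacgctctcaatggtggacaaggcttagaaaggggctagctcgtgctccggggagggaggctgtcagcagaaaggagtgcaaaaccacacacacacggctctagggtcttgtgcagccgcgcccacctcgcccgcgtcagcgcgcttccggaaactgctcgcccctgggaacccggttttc
Mefv: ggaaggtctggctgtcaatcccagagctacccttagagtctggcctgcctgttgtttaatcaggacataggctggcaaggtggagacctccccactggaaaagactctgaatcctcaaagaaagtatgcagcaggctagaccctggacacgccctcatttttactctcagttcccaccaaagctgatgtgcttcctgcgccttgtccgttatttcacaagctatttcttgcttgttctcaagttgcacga
Nlrp3: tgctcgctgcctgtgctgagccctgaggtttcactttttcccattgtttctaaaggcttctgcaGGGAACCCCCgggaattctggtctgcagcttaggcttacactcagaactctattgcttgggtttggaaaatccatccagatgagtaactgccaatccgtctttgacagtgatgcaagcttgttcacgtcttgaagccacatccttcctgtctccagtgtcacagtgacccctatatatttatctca
Casp4: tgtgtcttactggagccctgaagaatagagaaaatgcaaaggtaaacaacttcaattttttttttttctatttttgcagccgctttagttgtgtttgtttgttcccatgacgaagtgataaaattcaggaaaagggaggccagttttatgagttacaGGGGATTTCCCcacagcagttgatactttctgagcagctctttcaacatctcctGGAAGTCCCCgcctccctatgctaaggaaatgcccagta
P2rx7: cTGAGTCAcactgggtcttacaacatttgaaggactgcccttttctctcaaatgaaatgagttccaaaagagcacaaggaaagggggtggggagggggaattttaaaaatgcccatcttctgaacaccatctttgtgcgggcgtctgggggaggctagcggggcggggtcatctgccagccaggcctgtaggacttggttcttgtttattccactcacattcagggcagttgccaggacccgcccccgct

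All 10 genes had an upstream window in the RefSeq table, 13 windows in all, since Nlrp3, Casp4 and P2rx7 each have 2 annotated starts. The NF-kB consensus was found in 7.25% of all 32851 upstream windows of this length, and among the members in Casp4 and Nlrp3. In Casp4, the bases GGGGATTTCCC hold 2 overlapping matches, and another match, on the other strand, lies 30 to 39 bases before the start. In Nlrp3, the match GGGAACCCCC lies 177 to 186 bases before the more upstream start. The AP-1 site, present in 6.75% of all windows, was matched in P2rx7, 243 to 249 bases before its more upstream start. The PU.1 core was present in 2.44% of windows and was matched in Aim2 and Pycard. The interferon-response element core was in 2.98% of windows and in none of the 13 member windows. The window of Panx1, the gene with the largest difference, held none of these letters, and neither did those of Mefv, Casp1, Il18 and Nlrc4. These matches describe the sequence and do not show that a factor binds there.

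The deposited values were MAS5 signals, with arbitrary units on a linear scale, and a gene with several probe sets is represented by the brightest. A floor was set at a signal of 59.9, the 50th percentile of both arrays pooled, and a ratio with a signal under it is only a bound. Log2 ratios are LPS+CPN+GGOH minus LPS+CPN. To give the ratios a scale of error, log2 ratios of different probe sets for the same gene had a pooled SD of 0.45 over 4166 genes. That SD was 0.47 among the dimmest of these genes and 0.41 among the brightest, split into 3 classes of equal size. It does not measure the spread between cultures.

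The arrays also differed in markers of other cells and in RNA quality, as far as control probe sets show it. Of 14 macrophage markers, 13 were above the floor on both arrays, with Cd163 below it on both, and their summed signal was 135123 with LPS+CPN and 123401 with LPS+CPN+GGOH. Their median log2 ratio was -0.16, the value of Adgre1, within a range from -0.73 (Mertk) to 2.08 (Gata6). Of these markers, 3 were at least 2-fold higher (Itgam, Mrc1 and Gata6) and none 2-fold lower. The setting of equal macrophage markers described below rests on this median. Mesothelial and fibroblast markers were above the floor for 3 of 14 with LPS+CPN and 12 of 14 with LPS+CPN+GGOH. Of these 12, 10 were at least 2-fold higher, and the list's summed signal was 1415 and 29469; Lum and Postn were below the floor on both arrays. Of 8 neutrophil markers with a probe set, 3 were above the floor with LPS+CPN and 1 with LPS+CPN+GGOH (S100a8, 4282 and 2216). The summed signals, 4589 and 2419, were mostly S100a8. Ngp (75.4 and 51.5) and Elane (67.7 and 47.1) were near the floor. S100a9, Camp, Ltf, Mpo and Cxcr2 were below it on both arrays, so the list does not show a difference in neutrophils. Of 7 dendritic cell markers, 3 and 4 were above it, at sums of 1575 and 1268. None of 8 lymphocyte and natural killer cell markers and none of 8 mast cell and eosinophil markers passed the floor on either array. The ratio of 3′ to 5′ signal was 2.44 with LPS+CPN and 1.24 with LPS+CPN+GGOH for Actb, and 1.98 and 0.956 for Gapdh. The part of these differences in the member ratios was not tested.

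**Figure D1:**
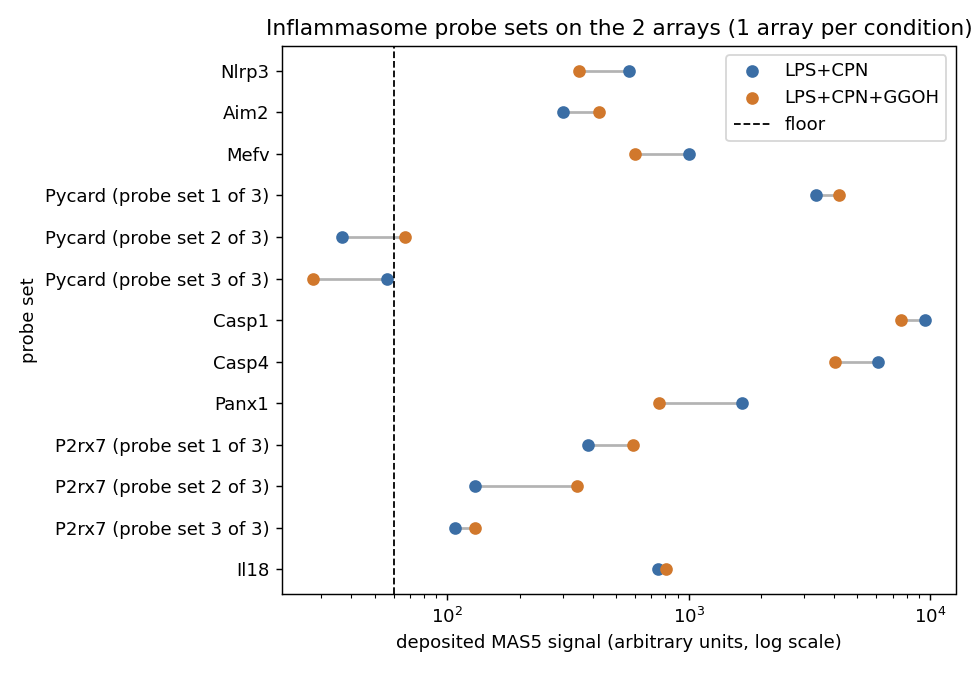
Deposited MAS5 signal (log axis, arbitrary units) of the 13 inflammasome probe sets, with LPS+CPN in blue, LPS+CPN+GGOH in orange and the floor of 59.9 dashed. Panx1, Mefv, Nlrp3, Casp4 and Casp1 are lower with GGOH, all 3 P2rx7 probe sets are higher, and 2 of the 3 Pycard probe sets lie at or below the floor on the LPS+CPN array.

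Among the sensors, Mefv and Nlrp3 were lower and Aim2 was higher. Mefv, which encodes pyrin, had a signal of 1004 with LPS+CPN and 599 with LPS+CPN+GGOH, a log2 ratio of -0.74. Of 11518 measured genes, 4.38% had a ratio as low or lower. Nlrp3, which encodes the sensor of ion fluxes and membrane damage that LPS is known to prime, had signals of 567 and 352 (log2 ratio -0.69), and 5.43% of genes were as low. These ratios were 1.67 and 1.54 times the SD between probe sets, and both stayed short of 2-fold. Aim2, the cytosolic DNA sensor, had signals of 303 and 427 (log2 ratio 0.50), 1.11 times that SD, and 15.03% of genes were as high. The log2 ratio of Aim2 exceeded that of Nlrp3 by 1.18, a difference that no constant scale factor of an array can alter. Each sensor was read by 1 probe set, so no probe set stands beside it as a check.

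The adaptor gene Pycard lay on the higher side, with signals of 3371 and 4187 on its bright probe set. Its log2 ratio of 0.31 was smaller than the spread between probe sets. The other Pycard probe sets gave no usable ratio. The second had signals of 36.4 and 66.4, at least 1.11-fold higher against the floor, and the dimmest had 56.2 and 27.7, below the floor on both arrays. Pycard and Nlrp3, partners in the same complex, differed in log2 ratio by 0.999. The SD between probe sets is that of single ratios and understates the spread of such a difference.

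Both caspase genes were lower. Casp1, which encodes the caspase of canonical inflammasomes, had signals of 9525 and 7616, a log2 ratio of -0.32. This is 0.72 times the SD between probe sets, and 21.3% of genes were as low. Casp4, the gene of caspase-11 and known as an LPS- and interferon-inducible gene, had signals of 6089 and 4032 (log2 ratio -0.59), 1.33 times that SD. For Casp4, 7.54% of genes were as low. The starts of these neighbouring genes lie 10332 bases apart on chromosome 9, and the gap between their log2 ratios, 0.27, was within the spread between probe sets. Beside each other, then, both were lower, and their order was not resolved.

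The channel genes lay at opposite ends. Panx1 had a signal of 1669 with LPS+CPN and 753 with LPS+CPN+GGOH (log2 ratio -1.15), 2.57 times the SD between probe sets. It was the only member at least 2-fold apart at the deposited scaling, and 0.981% of measured genes were as low. P2rx7, which encodes the ATP-gated channel, had 3 probe sets, all above the floor and all higher with GGOH. The brightest had signals of 383 and 589 (log2 ratio 0.62), the next 130 and 345 (1.41, or 2.65-fold), and the dimmest 108 and 130 (0.27). The direction was thus shared by the 3 probe sets while the log2 ratio ranged from 0.27 to 1.41. By its brightest probe set, the log2 ratio of P2rx7 exceeded that of Panx1 by 1.77, a 3.40-fold change in their relative signal. This is the widest gap between any 2 members, the lowest and the highest, and its size depends on the P2rx7 probe set taken.

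Il18, the cytokine that macrophages store as a precursor and caspase-1 activates, differed least at the deposited scaling. Its signals were 747 and 809, a log2 ratio of 0.11, which is 0.26 times the SD between probe sets. Dividing the arrays by their medians turned it to -0.05, so its direction depended on the scaling.

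In order of log2 ratio, the members ran Panx1, Mefv, Nlrp3, Casp4, Casp1, Il18, Pycard, Aim2 and P2rx7. Every gap between neighbours in this order was within the SD of 0.45, the widest being 0.44 between Casp1 and Il18 and 0.40 between Panx1 and Mefv. Neighbours in the order thus did not differ beyond this spread.

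**Figure D2:**
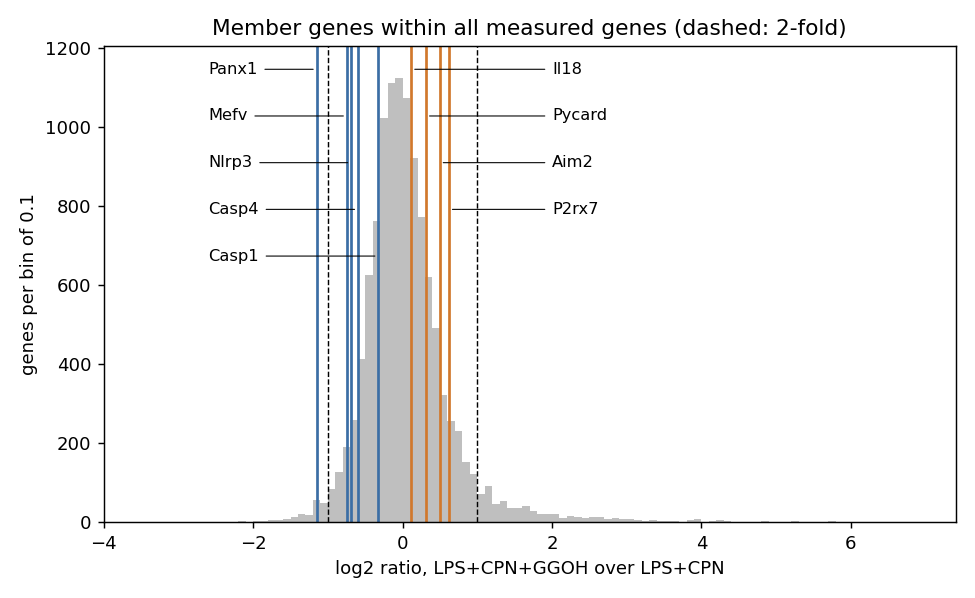
Histogram of the log2 ratio, LPS+CPN+GGOH over LPS+CPN, of the 11518 measured genes in bins of 0.1, with the 9 member genes as vertical lines (blue lower, orange higher) and 2-fold dashed. Panx1, at -1.15, is the only member beyond a dashed line, and the other 8 lie between -0.74 and 0.62.

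Of the 9 members, 1 was at least 2-fold lower and none was at least 2-fold higher. Over all measured genes, 1.66% were at least 2-fold lower and 5.5% at least 2-fold higher, with 191 and 634 genes. That split depended on scaling, with 332 lower and 529 higher after division by array medians, 307 and 503 with quantile normalization, and 117 and 853 with equal macrophage markers. Past the SD between probe sets, 4 members were lower (Panx1, Mefv, Nlrp3 and Casp4) and 2 were higher (P2rx7 and Aim2). By the same measure, 13.6% of all genes were lower and 17% were higher. Under the deposited scaling and 9 other settings, Panx1, Mefv, Nlrp3 and P2rx7 lay beyond this SD in all 10, Casp4 in 9 (-0.43 with equal macrophage markers) and Aim2 in 5. The other floors, the median over probe sets and the kept _x_at probe sets could not change Panx1 or Mefv. Each of these has 1 probe set well above the floor. Casp1 passed it with arrays divided by their medians (-0.49) and Pycard with equal macrophage markers (0.47). The median log2 ratio of the members was -0.32, the value of Casp1, beside -0.01 for all genes measured, and 5 of the 9 lay below the latter. When each of the 12 probe sets above the floor on an array was taken on its own, the median was 0.13, since P2rx7 then counted 3 times and Pycard 2 times. The sign of the members' median thus rested on how genes with several probe sets were counted.

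Under 9 other ways of scaling, flooring or summarising, 8 of the 9 member genes kept the sign of their log2 ratio, and Il18 was the exception. Several of these ways could not move a gene with a single probe set well above the floor, so they did not test its sign. Panx1 ranged from -1.32 to -0.99, Mefv from -0.91 to -0.58, Nlrp3 from -0.85 to -0.52, Casp4 from -0.76 to -0.43 and Casp1 from -0.49 to -0.16. On the higher side, P2rx7 ranged from 0.45 to 0.78, Aim2 from 0.18 to 0.66 and Pycard from 0.15 to 0.47. Division by the array medians moved the median of all genes by -0.16, and setting the macrophage markers equal moved it by 0.15. Measured from the median of all genes under each setting, Panx1 stayed between -1.18 and -1.07. Panx1 passed 2-fold under all but the equal macrophage markers, where it was -0.99.

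**Figure D3:**
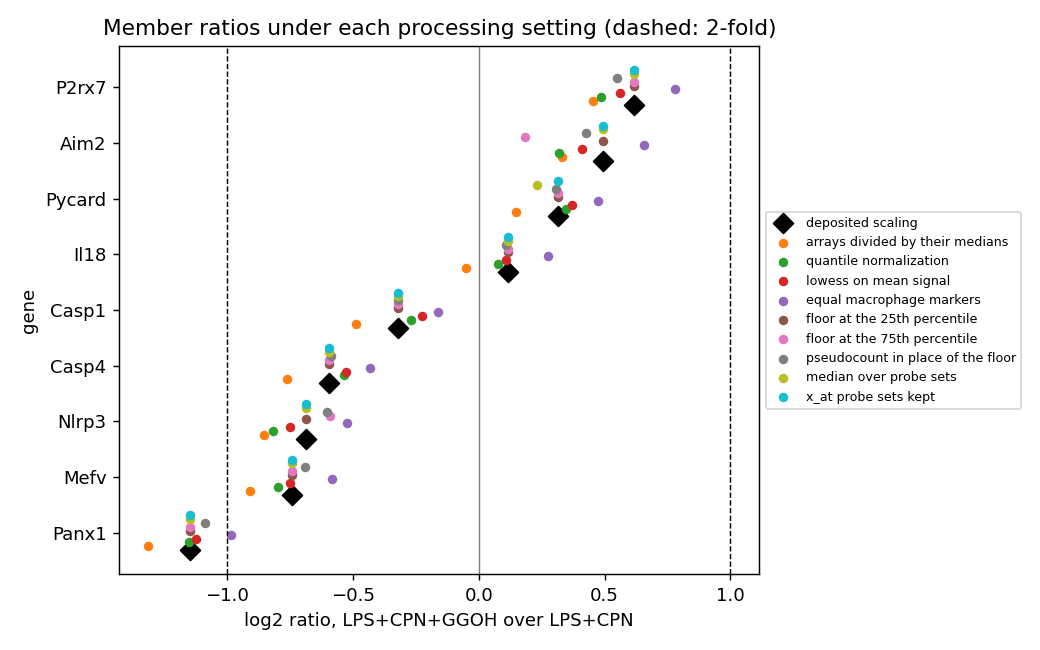
Log2 ratio, LPS+CPN+GGOH over LPS+CPN, of the 9 member genes at the deposited scaling (black diamonds) and under 9 other settings (coloured points), with 2-fold dashed. Il18 is the only gene with points on both sides of 0, and Panx1, between -1.32 and -0.99, stays lowest under every setting.

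Genes that act with the members were described in 6 groups, 61 genes in all, of which 47 had a probe set and 40 were measured on at least 1 array. Of these 40, 2 were at least 2-fold lower (Irf1 and Gbp7) and 2 at least 2-fold higher (Il1r1 and Il33), beside 1.66% and 5.5% of all measured genes. After division by array medians 6 were lower. With the lower floor (25th percentile) or the pseudocount 4 were higher, and with the higher floor (75th percentile) 0 were. Their median log2 ratio was -0.25.

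Among other sensors, all 5 measured genes had ratios below 0 (median -0.22), beside 51.4% of all measured genes. With lowess 4 were below 0 and with equal macrophage markers 3, and none was 2-fold apart. All but Nlrp6 lay within the SD between probe sets. The lowest was Nlrp6, an NLR best known from the gut, with signals of 107 and 70.7, near the floor (log2 ratio -0.59). Naip2 and Naip5, receptors for bacterial secretion proteins and flagellin that signal through NLRC4, had log2 ratios of -0.27 and -0.08.

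Among regulators of assembly and of pyrin, none of 8 measured genes was 2-fold apart, and the median was -0.29, or -0.03 as the median over probe sets. Rhoa, the GTPase that pyrin monitors, had a log2 ratio of -0.28 (14287 and 11742), but its other measured probe set gave 0.36. Pkn2, a RhoA-dependent kinase that can phosphorylate pyrin, had -0.31 on its brighter probe set and 0.12 on the other. Pstpip1, a cytoskeletal adaptor that binds pyrin, had a log2 ratio of 0.16 (6133 and 6875). The log2 ratio of Mefv (-0.74, from 1 probe set) lay below that of each of these genes. Its gaps to Rhoa and Pkn2 were close to the SD between probe sets, so their order was not resolved. By its brightest probe set, the lowest regulator was Txnip, a thioredoxin-binding protein reported to bind NLRP3, at -0.58, with its other probe set at 0.18. By the median over probe sets it was Trim30a, an interferon-inducible TRIM protein, at -0.71, with probe sets at -0.39 and -1.04.

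Among other caspases and effectors of cell death, none of 7 measured genes passed 2-fold and the median was 0.22, which turned to -0.03 with the floor at the 75th percentile. Gsdmd, which encodes gasdermin D, had signals of 3214 and 2575 (log2 ratio -0.32), beside -0.32 for its protease gene Casp1. Each was read by 1 probe set and lay within the SD between probe sets, so the likeness is finer than these data resolve. Casp12 had the largest ratio of the group, at least 1.87-fold higher, with an LPS+CPN signal below the floor. That bound depends on the floor, and Casp12 passed 2-fold with the floor at the 25th percentile (log2 ratio 2.57), with the pseudocount (1.13) and with equal macrophage markers (1.07). Casp1, Casp4 and Gsdmd were thus all on the lower side, and at the deposited scaling Casp4 was the only 1 of them beyond the SD between probe sets.

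Among IL-1 family cytokines and receptors, Il1b and Il18 did not differ alike. Il1b, a substrate of caspase-1, had signals of 4879 and 2481 (log2 ratio -0.98), and the Il18 ratio exceeded it by 1.09. Il1r1, the signalling receptor of IL-1, was at least 8.36-fold higher with GGOH (signals 2.61 and 501), and Il33, an alarmin of stromal cells, was at least 3.20-fold higher (23.1 and 192). Both were below the floor with LPS+CPN, on the array where 3 of 14 mesothelial and fibroblast markers were above it. Which cells gave the Il1r1 and Il33 signals was not tested. The median of the 10 measured genes was 0.04, and -0.08 with arrays divided by their medians.

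Among purinergic receptors, pannexins and ectonucleotidases, 4 of 8 genes with a probe set were measured, none was 2-fold apart, and the median was -0.18. The largest ratio was that of P2ry6, a UDP receptor, at -0.32 (2377 and 1909). The other pannexin genes Panx2 and Panx3 were below the floor on both arrays, as were P2rx1 and Nt5e. P2rx4, the other P2X gene measured, had a log2 ratio of -0.09 on its brightest probe set, 0.71 below that of P2rx7, but its 4 measured probe sets ranged from -0.61 to 1.08, so the order of these genes was not resolved.

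The guanylate-binding protein and interferon regulatory factor genes, some of which prime or assist the non-canonical route, were lower in all 6 measured cases. Their log2 ratios ran from -2.66 to -0.75, with a median of -0.91. All 6 were also below 0 under each of the 9 other settings, which moved the median of all genes only by -0.16 to 0.15. Of all measured genes, 51.4% had a ratio below 0, and 2 of these 6 were at least 2-fold lower, beside 1.66% of all genes. The group was chosen with earlier results of these data known, so these shares do not test it. Irf1, an interferon-responsive transcription factor, had signals of 18294 and 2904 (log2 ratio -2.66). Gbp7, an interferon-inducible GTPase, had 12299 and 3348 (-1.88). The log2 ratio of Casp4 was 2.06 above that of Irf1, so the caspase gene stood closer to its LPS+CPN level than this factor.

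**Figure D4:**
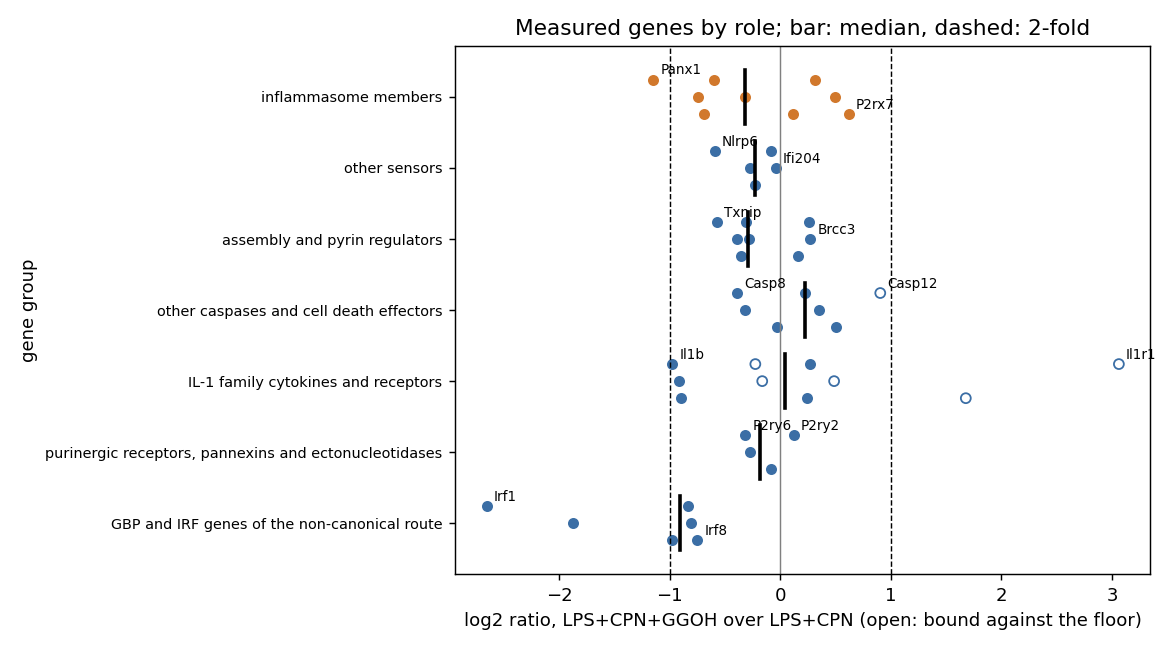
Log2 ratio, LPS+CPN+GGOH over LPS+CPN, of the 9 inflammasome member genes (orange) and of the measured genes of 6 other groups (blue; open circles are bounds against the floor), with the lowest and highest gene of each group named, medians as bars and 2-fold dashed. The median is -0.91 for guanylate-binding protein and interferon regulatory factor genes, -0.32 for the members and 0.22 for other caspases and effectors (-0.03 with the floor at the 75th percentile).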

How the data were processed

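RNA of 2 macrophage cultures, 1 per group, was hybridised as biotinylated cRNA to 1-colour arrays, per the labels. The authors deposited 1 signal intensity per probe set and array, made with MAS5 per the submitters' processing notes; its version and scaling target are not stated. The deposited intensity values were already scaled, with a mean of 500.0 over the central 96% of signals of either array. The number of arrays limits the precision.

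Gene names came from the platform annotation, in which 34945 had 1 symbol. Control and _x_at probe sets were left out, which left 32907 probe sets of 18093 genes. Each gene was represented by its brightest probe set (mean log2 signal), signals were floored at the 50th percentile (59.9), and genes above it on at least 1 array counted as measured. Calls were made at 2-fold, bounds included, with no test. All members were named with every probe set; of the other groups, genes at least 2-fold apart, otherwise the largest absolute ratio, and Il1b, Gsdmd, Rhoa, Pkn2 and Pstpip1 always. Naip2, Naip5, P2rx4, Trim30a and genes below the floor were named after their values were seen. The members, gene lists and settings were chosen with earlier results of these data known. The steps were tested on simulated data with planted effects larger than any member ratio, in genes well above the floor. The simulated noise was less than the SD between probe sets. That test does not show recovery of effects of the members' size. Other settings were 4 scalings (array medians, quantile, lowess, equal macrophage markers), a lower (25th percentile) and a higher (75th percentile) floor, a pseudocount of the same size, the median over probe sets, _x_at probe sets kept, and every member probe set on its own. Python 3.11.15, pandas 2.3.3 and statsmodels 0.14.6 (lowess, span 0.4) were used.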

Additional observations from a re-analysis of the deposited data

How the results depend on the processing

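No paired analysis was possible because each group has 1 array and the labels give no replicate numbers. Leaving out a replicate was not possible for the same reason. Panx1 no longer passed 2-fold with equal macrophage markers, which left 0 members at least 2-fold lower. With every member probe set on its own, 1 was at least 2-fold higher (P2rx7) and the members' median was 0.13. Other pathway genes at least 2-fold lower numbered 6 with arrays divided by their medians. Those at least 2-fold higher numbered 4 with the floor at the 25th percentile, 0 at the 75th and 4 with the pseudocount. Of all genes, 332 were at least 2-fold lower after division by array medians, 307 with quantile normalization, 117 with equal macrophage markers, 1127 with the floor at the 25th percentile and 88 at the 75th. At least 2-fold higher were 1658 and 126 with the floor at the 25th and 75th percentiles. A lower floor admits more dim genes and a higher floor fewer. The cause of the other shifts was not tested. All 81 alternative values of single members moved by less than the SD between probe sets. Part of this was fixed in advance, since several settings could not move a gene with a single probe set well above the floor. Of 66 alternative counts and medians, 52 stayed within 1.5 times the count or within that SD. Signal over background limits the dim probe sets of Pycard and P2rx7.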

Other observations

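Of the other pathway genes, 17 had more than 1 measured probe set, and for 7 of these the probe sets took opposite signs (41.2%, beside 53.7% of 4948 such genes on the arrays). P2rx4, an ATP-gated channel of endosomes and lysosomes, had 4 measured probe sets with log2 ratios of -0.09, 1.08, 0.20 and -0.61, from the brightest to the dimmest. Il1rap, the accessory chain of IL-1 receptors, had -0.90 (signals 156 and 83.4) and 0.98 (66.2 and 131). Nek7, a kinase that NLRP3 needs to assemble, had -0.36 (3796 and 2966), 0.31 (2236 and 2778) and a bound of 0.92 against the floor. These genes were chosen after their values were seen.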
